A study of Mus musculus with 12 samples.

Results

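The genes described here are 33 members of the unfolded protein response of the endoplasmic reticulum, taken from the gene table by their symbols. All 33 were found among the 17871 genes of the table, and all 33 passed the filter on low counts that left 12896 genes for testing. They fell into 23 folding and disposal genes that are known targets of the transcription factors Atf6 and Xbp1 (called the folding genes below), 6 genes of the Atf4 and Ddit3 branch, and 4 genes for the sensors and for the factor that IRE1 splices (Atf6, Ern1, Eif2ak3 and Xbp1, called the sensors). The list follows what the genes are known to do, and it was drawn up with earlier results of these data known.

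Liver RNA of male ICR mice (written IRC in the sample labels) was sequenced in 12 libraries, 3 for each of 4 groups, from mice that were 3 weeks old at the start. A0 received water by daily gavage for 5 weeks, and A10 received alginate oligosaccharides (AOS, short chains cut from the seaweed polymer alginate) at 10 mg/kg in the same way. BA0 received 1 intraperitoneal injection of busulfan, a DNA-alkylating drug used to deplete bone marrow and germ cells, at 40 mg/kg and then water by gavage. BA10 received the same injection of busulfan and then AOS at 10 mg/kg. The groups thus share strain, sex and gavage, and the AOS groups were studied at a single dose. The labels number the libraries of a group but do not say that each came from a different mouse, so the p-values measure the spread between these libraries. The study asked whether AOS alters what busulfan does to the liver.

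Cells that secrete much protein, as hepatocytes do, fold it in the endoplasmic reticulum with the help of chaperones such as Hspa5 (BiP). When unfolded protein builds up, the membrane sensors encoded by Atf6, Ern1 (IRE1) and Eif2ak3 (PERK) are switched on. Cleaved Atf6 protein and the spliced form of Xbp1, which IRE1 makes, raise the genes for chaperones and for the disposal of misfolded protein. PERK slows translation and lets more Atf4 protein be made, and Atf4 raises Ddit3 (CHOP), Ppp1r15a (GADD34), Trib3, Asns and Chac1. Splicing of Xbp1 and translation of Atf4 cannot be read from gene counts, so the levels below are of total transcript only.

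The promoters of the members were searched for known elements, and the letters are shown here because the gene groups are compared throughout. RefSeq promoters of the GRCm38.p6 build, from 250 bases before to 50 after the start site, were found for 29 of the 33 members. The stress element ERSE, which Atf6 is known to bind together with the factor NF-Y, was searched on both strands as CCAAT followed after 9 bases by CCACG. It was present in 9 of 20 folding genes (45%) and in 39 of all 32851 promoters (0.119%), and in 0 of 6 genes of the Atf4 branch and 0 of 3 sensors. The 9 carriers were Hspa5, Hsp90b1, Creld2, Dnajc3, Syvn1, Canx, Calr, Pdia6 and Derl3, and Hsp90b1 held 2 copies. In the lines that follow the capitals mark the elements, each line reads 5′ to 3′ on the strand of the gene, and the other letters are the bases around them. All windows shown lie upstream of the start site. Hspa5 also carried TGACGTG, the core of the element UPRE, which 2.01% of all promoters held. The windows were Hspa5 (chr2:34771923-34772053, plus strand), Hsp90b1 (chr10:86705523-86705666, minus strand), Creld2 (chr15:88819510-88819548, plus strand) and Syvn1 (chr19:6046522-6046560, plus strand).
Hspa5: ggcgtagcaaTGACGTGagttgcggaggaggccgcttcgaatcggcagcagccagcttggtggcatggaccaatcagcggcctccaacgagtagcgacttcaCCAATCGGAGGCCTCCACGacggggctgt
Hsp90b1: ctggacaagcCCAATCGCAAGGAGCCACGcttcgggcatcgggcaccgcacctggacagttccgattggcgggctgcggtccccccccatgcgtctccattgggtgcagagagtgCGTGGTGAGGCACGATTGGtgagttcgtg
Creld2: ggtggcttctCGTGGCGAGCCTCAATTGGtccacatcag
Syvn1: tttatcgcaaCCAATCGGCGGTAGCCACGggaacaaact

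The same element stood in Canx, Calr and Pdia6. Canx is set beside the genes above because it was called higher as Hsp90b1 was. Calr and Pdia6 are shown because they carry the same letters and passed no test in the reported edgeR fit of all libraries. These windows were Canx (chr11:50325790-50325828, minus strand), Calr (chr8:84847065-84847103, minus strand) and Pdia6 (chr12:17266481-17266519, plus strand).
Canx: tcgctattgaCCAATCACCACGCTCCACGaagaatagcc
Calr: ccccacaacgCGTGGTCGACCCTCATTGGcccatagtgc
Pdia6: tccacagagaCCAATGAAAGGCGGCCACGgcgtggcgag

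Herpud1 carried the related element ERSE-II (ATTGG followed after 1 base by CCACG, in 0.0365% of all promoters) and also the composite element CARE (TGATG directly followed by CAA), which Atf4 is known to bind and 0.895% of all promoters held. ERSE-II was present in 2 of 20 folding genes, Herpud1 and Dnajb11, and in Dnajb11 it lay after the start site. Herpud1 is shown because it was the only member that held, of the elements searched, letters of both branches. The window was Herpud1 (chr8:94386307-94386397, plus strand). In the Atf4 branch Chac1 alone held CARE in this window, 1 of 6 genes, at Chac1 (chr2:119351039-119351066, plus strand). A match is a description of letters, and no match says only that these letters are not in the window.
Herpud1: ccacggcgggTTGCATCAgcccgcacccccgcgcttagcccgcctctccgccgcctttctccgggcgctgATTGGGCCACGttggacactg
Chac1: ttccctgccgTTGCATCActcctgccag

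Libraries held 16439508 to 18174590 estimated counts. Values below are CPM, counts scaled to library size with TMM factors (trimmed mean of M values), with mean ± SD over 3 libraries; no molecular identifiers are described. Several libraries stood apart and are named beside each result that rests on them. In A0 replicates 1 and 2, smooth trends over gene length and GC content took 21.2% and 11.6% of the variance of a library's deviations from the mean, against 0.163% to 5.56% in the other 10 libraries. A10 replicate 3 stood apart from A10 replicates 1 and 2 in the folding genes themselves, and BA0 replicate 2 held transcripts of exocrine pancreas. The labels give the tissue only as cells, and the 5 hepatocyte markers summed to 67510 to 96150 CPM in every library, with Alb highest. Summed markers of endothelium were lowest in A0 (84.2 to 89.3 CPM, against 121 to 203 CPM in the other groups), those of Kupffer cells were highest in A10 replicate 3 (265.5 CPM, against 93.5 to 241 CPM), and the 4 detected markers of plasma and B cells, another secretory lineage, summed to at most 4.52 CPM. In bulk liver, fewer cells of a type and less RNA per cell cannot be told apart. The part of these cell types in the results was not tested.

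Per unit length the 6 most abundant members were folding genes, while other folding genes lay far down the order. In A0 livers the authors' RPKM values averaged 488 ± 42.4 for Calr and 430 ± 17.8 for P4hb, a lectin chaperone and a disulfide isomerase, whose mean ± SD ranges overlapped. Hsp90b1 (GRP94) followed at 245 ± 31.5 RPKM, Pdia3 at 215 ± 7.09 RPKM and Hspa5 at 200 ± 17.6 RPKM, and these neighbours did not differ beyond their spread. Xbp1 stood at 101 ± 15.9 RPKM and Atf4 at 73.2 ± 4.33 RPKM, above most of the folding genes, and Derl3 at 3.07 RPKM was 29th in the order. The remaining genes of the Atf4 branch lay near or at the bottom of the order, from 5.21 ± 0.348 RPKM for Ppp1r15a to 0.68 ± 0.374 for Trib3 and 0.35 ± 0.241 for Asns. In BA10 Hspa5 averaged 484 ± 26.6 RPKM and lay beside Calr (498 ± 51.9 RPKM).

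**Figure D1:**
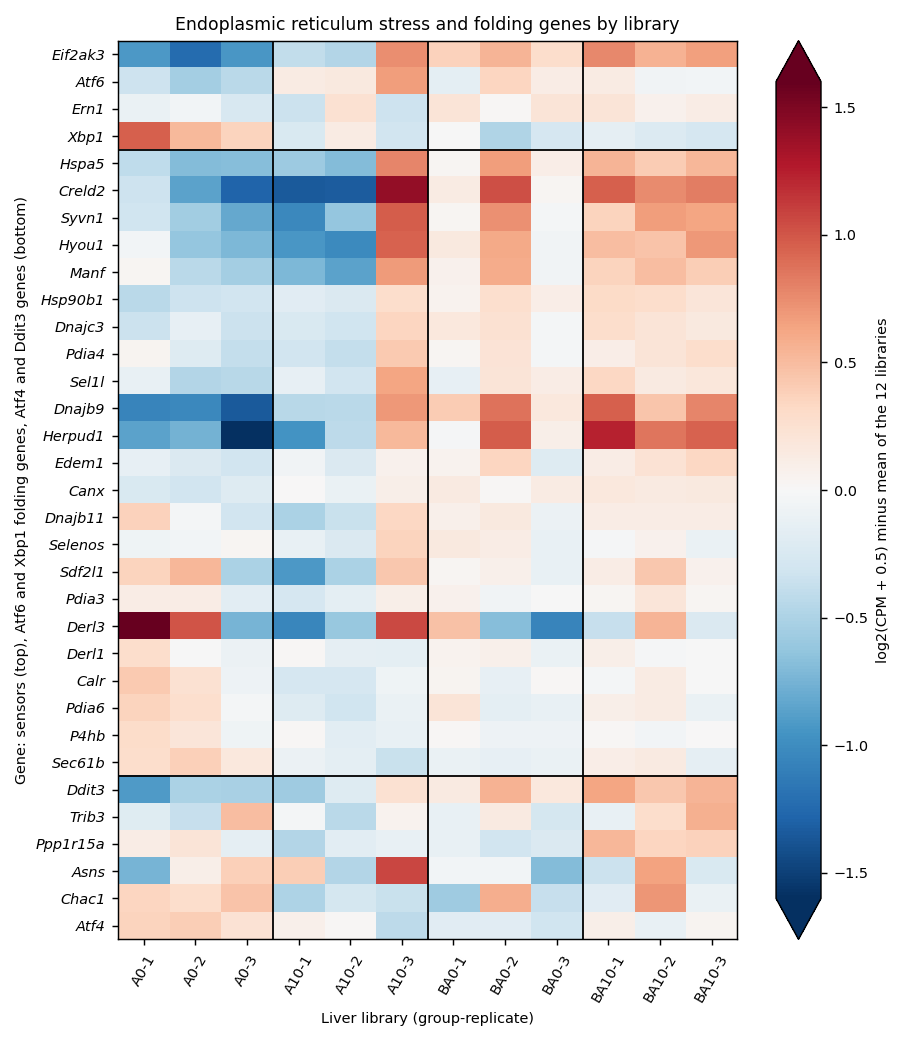
Each row is 1 of the 33 genes and each column 1 of the 12 liver libraries; colour is log2(CPM + 0.5) minus the mean of that gene over the 12 libraries, with black lines between the gene groups and between the 4 groups of mice. The upper folding genes are low in A0 and in A10 replicates 1 and 2 and high in A10 replicate 3, BA0 replicate 2 and BA10. Xbp1 and Atf4 are highest in the A0 libraries.

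The first comparison asked what busulfan did to these genes without AOS. Compared to A0, 6 of 33 members were higher in BA0 and 3 were lower, where 4.09% of all tested genes were higher and 2.3% were lower. The higher members were the folding genes Dnajb9, Herpud1, Hsp90b1 and Canx, the sensor Eif2ak3 and the Atf4-branch gene Ddit3. The lower members were Xbp1, Atf4 and Sec61b. The median log2 fold change was 0.30 over the folding genes, -0.35 over the Atf4 branch and 0.42 over the sensors, beside 0.03 over all genes tested. In the Atf4 branch Trib3, Asns and Chac1 held only 3 to 41 counts a library. The medians of this branch, here and below, lean on these genes. With the length and GC trends removed the median of the folding genes was 0.13. An unadjusted p under 0.05 was found for 14 members (42.4%), beside 28.5% of all genes.

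Dnajb9 (ERdj4, chr12:44205559-44210326 in mm10), a co-chaperone of BiP that holds IRE1 in check, measured 52.0, 52.8 and 42.5 CPM in A0 and 144, 200 and 122 CPM in BA0. Every BA0 library lay above every A0 library, and the rise was 1.66 ± 0.30 on the log2 scale (edgeR quasi-likelihood test, adjusted p = 0.0219). In A10, which had no busulfan, Dnajb9 also lay above every A0 library, at 79.8, 80.2 and 175 CPM. Its log2 fold change there was 1.19 ± 0.30 and did not pass (edgeR adjusted p = 0.0507). Herpud1, a membrane protein that organises the disposal complex, measured 140, 151 and 82.6 CPM in A0 and 250.9, 496 and 271 CPM in BA0. The groups did not overlap, and the highest value was that of BA0 replicate 2, the library with pancreatic transcripts. The log2 fold change was 1.45 ± 0.38 (edgeR adjusted p = 0.0470).

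Hsp90b1, the endoplasmic reticulum form of HSP90, measured 669, 718 and 729 CPM in A0 and 935, 1083 and 975 CPM in BA0. Canx (calnexin), a membrane lectin that holds unfolded glycoproteins, measured 335, 321 and 343 CPM in A0 and 437, 403 and 434 CPM in BA0. These abundant chaperones rose in every BA0 library by a small step, 0.50 ± 0.13 and 0.35 ± 0.08 on the log2 scale (edgeR adjusted p = 0.0491 and 0.0385). With the length and GC trends removed the values were 0.28 ± 0.14 and 0.13 ± 0.11, and neither passed (edgeR adjusted p = 0.267 and 0.485). In A10, which had no busulfan, every library also lay above those of A0 for both genes. Their log2 fold changes there were 0.33 ± 0.13 and 0.25 ± 0.08, without passing (edgeR adjusted p = 0.156 and 0.0951). Sec61b, a subunit of the channel through which new proteins enter the endoplasmic reticulum, measured 43.1, 46.4 and 39.8 CPM in A0 and 32.9, 32.2 and 32.8 CPM in BA0. It fell by 0.40 on the log2 scale (SE 0.10, edgeR adjusted p = 0.0462), and with the trends removed the value was -0.23 ± 0.10 (adjusted p = 0.213).

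Hspa5, the chaperone at the centre of the response, measured 603, 493 and 496 CPM in A0 and 814, 1266 and 859 CPM in BA0. The BA0 libraries lay above those of A0 without overlap, yet with the spread of all 4 groups in the fit the log2 fold change of 0.88 ± 0.33 did not pass the test (edgeR adjusted p = 0.112). The spread came in part from A10 replicate 3. Without that library Hspa5 passed at the same fold change (SE 0.16, edgeR adjusted p = 0.0161). In that fit 11 members were higher and 3 were lower, beside 6.2% and 3.82% of all genes tested. Dnajc3, Creld2, Syvn1 and Atf6 were now among the higher. A10 replicate 3 stood apart in the folding genes themselves, so its removal narrows their spread in the fit. The added calls are thus no separate support for a rise. Creld2, a secreted folding factor, averaged 18.7 ± 6.40 CPM in A0 and 45.0 ± 18.7 CPM in BA0 (log2 fold change 1.27 ± 0.64, edgeR adjusted p = 0.216 with all libraries).

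**Figure D2:**
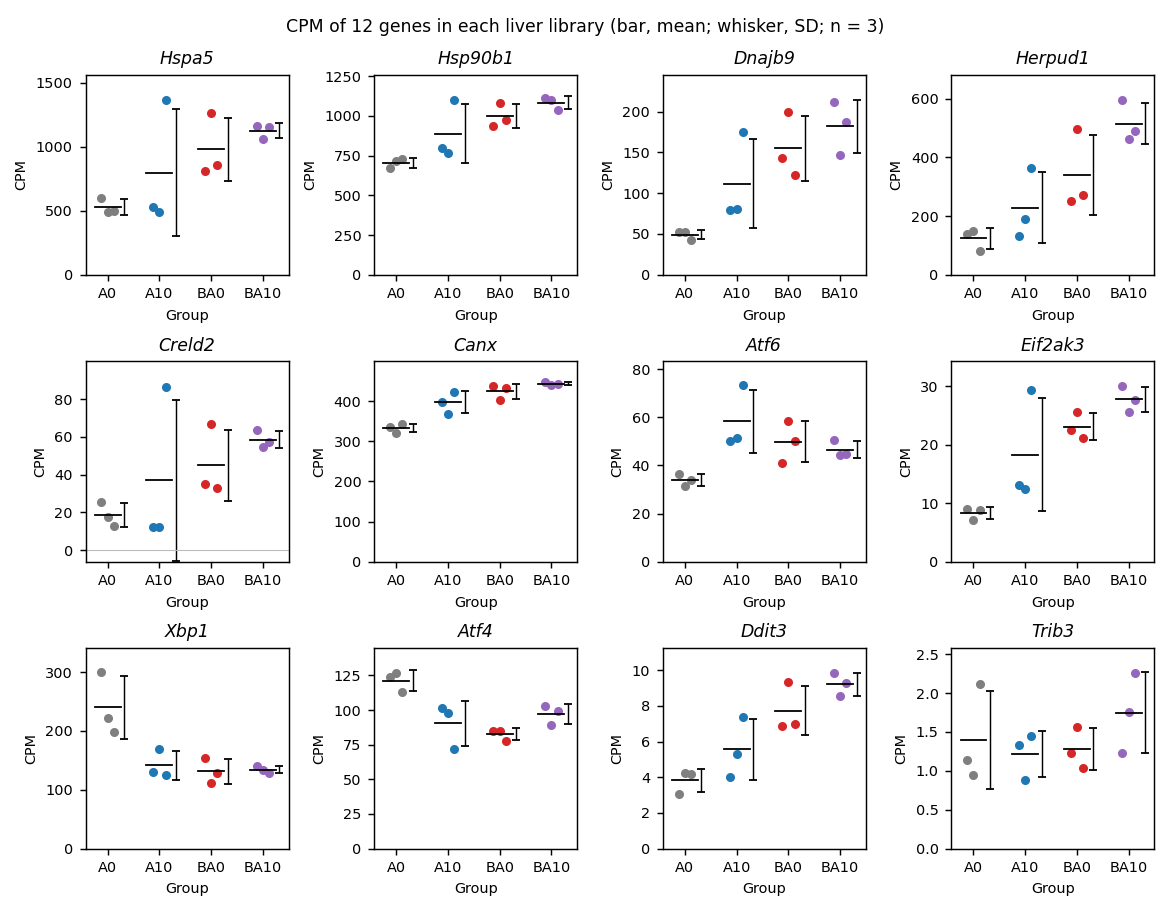
CPM of 12 genes in each of the 3 libraries of a group (points), with the group mean (bar) and SD (whisker); all axes show 0, and the panel for Creld2 runs below 0 to hold the whisker of A10. In A10 the third point lies far above the others for Hspa5, Creld2 and Eif2ak3, and the 3 BA10 points of Hspa5 sit between 1060 and 1165 CPM, all above the A0 points.

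Among the sensors, Eif2ak3 (chr6:70844515-70905245), the gene for the kinase PERK, measured 8.96, 7.10 and 8.84 CPM in A0 and 22.5, 25.6 and 21.2 CPM in BA0. This was the largest difference of a sensor, with a ratio of means of 2.78 and a log2 fold change of 1.47 ± 0.28 (edgeR adjusted p = 0.0244). Eif2ak3 also lay above A0 in every A10 library, with a log2 fold change of 1.14 ± 0.28 in A10. Xbp1 (chr11:5520659-5525893) went the other way and measured 300, 222 and 198 CPM in A0 and 154, 111 and 129 CPM in BA0. It fell by 0.87 on the log2 scale (SE 0.17, edgeR adjusted p = 0.0258), with no overlap between the groups. A similar difference from A0 was found in A10, which had no busulfan (log2 fold change -0.76 ± 0.17). Atf6 measured 36.4, 31.4 and 33.9 CPM in A0 and 41.1, 58.4 and 50.02 CPM in BA0, a log2 fold change of 0.56 ± 0.16 that did not pass (edgeR adjusted p = 0.0580). Ern1, the gene for IRE1, averaged 118 ± 9.02 CPM in A0 and 144 ± 10.3 CPM in BA0 (log2 fold change 0.28 ± 0.15, edgeR adjusted p = 0.224).

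In the Atf4 branch the genes did not move together. Ddit3 (chr10:127290774-127296288), which encodes the factor CHOP linked to cell death under prolonged stress, measured 3.08, 4.21 and 4.18 CPM in A0 and 6.88, 9.34 and 7.0 CPM in BA0. It rose by 1.01 ± 0.23 on the log2 scale (edgeR adjusted p = 0.0340). Atf4 itself measured 124, 127 and 113 CPM in A0 and 84.8, 85.0 and 77.6 CPM in BA0. It fell by 0.56 on the log2 scale (SE 0.12, edgeR adjusted p = 0.0340). Trib3, a pseudokinase whose protein the study followed as a marker of liver injury, measured 1.14, 0.943 and 2.12 CPM in A0 and 1.22, 1.57 and 1.03 CPM in BA0. These groups overlapped fully, and the log2 fold change was -0.14 ± 0.37 (edgeR adjusted p = 0.831) on 15 to 35 counts a library. Ppp1r15a, the phosphatase subunit that ends the translation block, gave -0.30 ± 0.13 (adjusted p = 0.164), the glutathione-degrading Chac1 -0.53 ± 0.45 (adjusted p = 0.458) and asparagine synthetase, Asns, -0.41 ± 0.75 (adjusted p = 0.751), all by edgeR.

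The other 18 folding genes differed in size and sign. Hyou1, a large chaperone that works with BiP, gave a log2 fold change of 0.69 ± 0.44 (edgeR adjusted p = 0.321), and Syvn1, the ubiquitin ligase of the disposal complex, gave 0.84 ± 0.42 (edgeR adjusted p = 0.215). Manf (0.53 ± 0.35), the disposal adaptor Sel1l (0.41 ± 0.21), the co-chaperone Dnajc3 (0.40 ± 0.16), the mannosidase-like Edem1 (0.30 ± 0.13) and the isomerase Pdia4 (0.25 ± 0.19) lay above 0 without passing. The membrane protein Selenos (0.08 ± 0.14), Derl1 (-0.06 ± 0.11) and Sdf2l1 (-0.20 ± 0.32) lay within 1 SE of 0. Derl3, a derlin of secretory cells, averaged 4.24 ± 3.17 CPM in A0 and 1.55 ± 1.20 CPM in BA0 (-1.45 ± 0.81), and its A0 libraries ran from 0.97 to 7.29 CPM. Near 0 also lay Dnajb11 (0.01 ± 0.21) and the isomerase Pdia3 (-0.03 ± 0.12). Below 0 lay Calr (-0.23 ± 0.13), Pdia6 (-0.22 ± 0.13) and P4hb (-0.20 ± 0.11), none of which passed. Of the 9 carriers of ERSE, 2 were higher in BA0, Hsp90b1 and Canx, beside 4.09% of all tested genes. Calr and Pdia6 carry the same letters and had log2 fold changes below 0.

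The calls in BA0 changed when single libraries were left out. Over the alternatives the log2 fold change ran from 1.43 to 1.84 for Dnajb9, from 1.35 to 1.53 for Eif2ak3, from 0.86 to 1.14 for Ddit3 and from 1.07 to 2.01 for Herpud1. The count of members called was 0 without A0 replicate 1, A0 replicate 2, BA0 replicate 2 or BA0 replicate 3, beside as few as 4 of all genes in such a fit, and 3 to 8 without any other library except A10 replicate 3, without which it was 14. With the length and GC trends removed, Dnajb9, Ddit3 and Eif2ak3 stayed higher (edgeR adjusted p = 0.0426, 0.0427 and 0.0374) and Xbp1 stayed lower (adjusted p = 0.0419). Leaving out A0 replicates 1 and 2 together left 1 control library and 0 members called, in a fit that assumes that library varies like the others. Upper-quartile scaling turned the balance of all genes called from 527 higher and 296 lower to 415 higher and 679 lower, and that of the members from 6 and 3 to 4 and 3. In BA0 replicate 2 the 10 acinar genes of the pancreas summed to 288.3 CPM, against 0.35 and 10.96 CPM in the other BA0 libraries, and its values of Hspa5, Dnajb9, Herpud1 and Creld2 were the highest of BA0. The part of pancreatic tissue in these values was not tested.

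**Figure D3:**
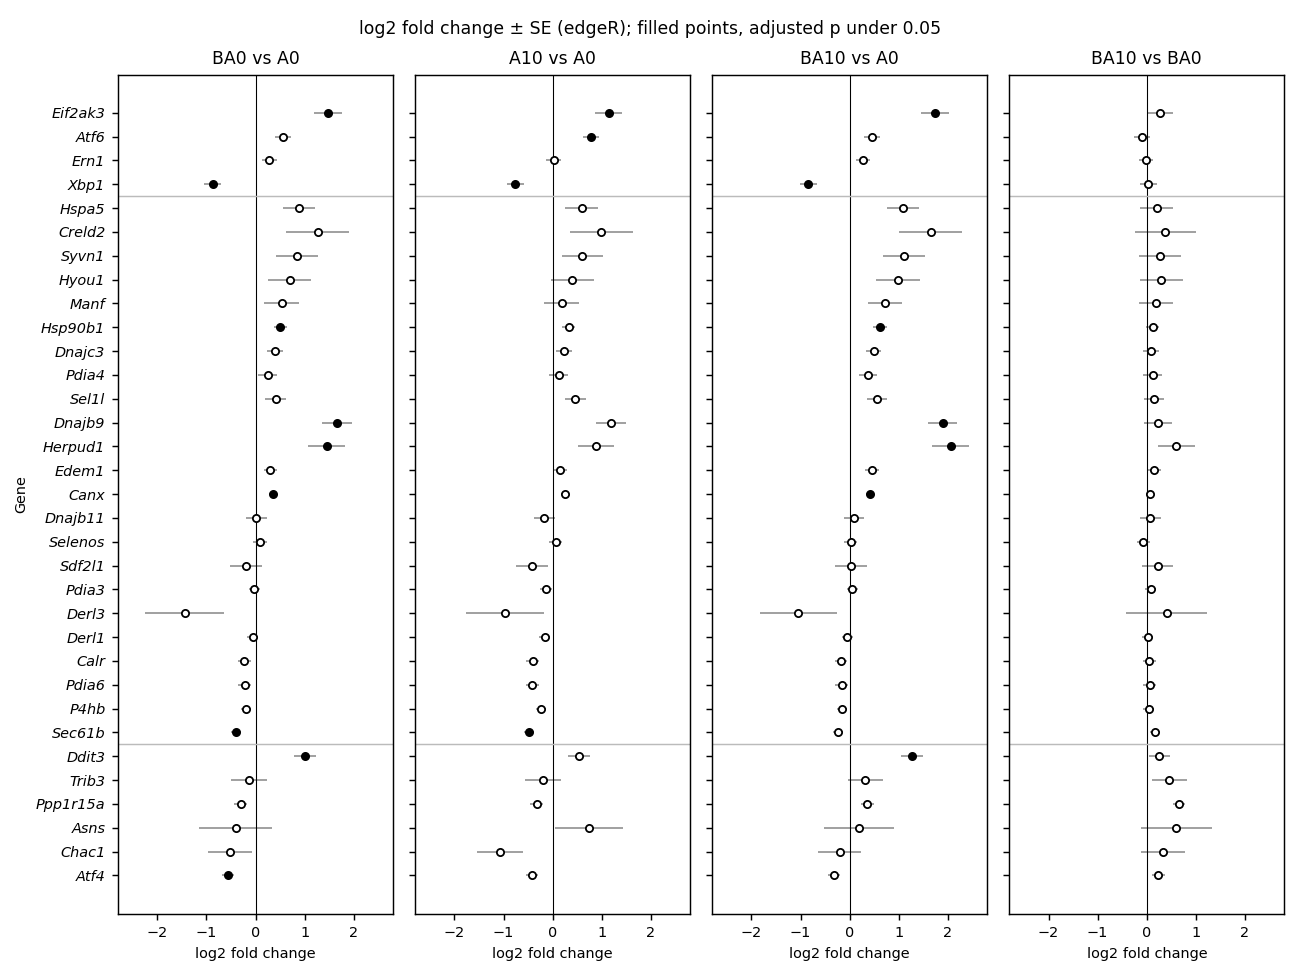
Log2 fold change ± SE of the 33 genes (edgeR) in 4 comparisons; filled points have adjusted p under 0.05. Dnajb9, Herpud1, Eif2ak3, Ddit3, Hsp90b1 and Canx are filled to the right and Xbp1 to the left in both busulfan groups against A0, and no point is filled for BA10 against BA0.

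The comparison of BA10 with A0 showed both agents together, and it shares the A0 libraries with the comparison above. Compared to A0, 6 of 33 members were higher in BA10 and 1 was lower, beside 6.95% and 3.19% of all tested genes. The 6 were Herpud1, Dnajb9, Eif2ak3, Ddit3, Hsp90b1 and Canx, and the lower gene was Xbp1. The median log2 fold change was 0.41 over the folding genes, 0.26 over the Atf4 branch and 0.36 over the sensors, beside 0.01 over all genes. That of the Atf4 branch lay between Asns (0.19 ± 0.71) and Trib3 (0.32 ± 0.36), both with few counts. The median of the Atf4 branch turned to -0.030 without A0 replicate 1 and to -0.27 without A0 replicates 1 and 2, and that of the folding genes was 0.21 with the length and GC trends removed. An unadjusted p under 0.05 was found for 18 members (54.5%), beside 30.2% of all genes.

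Herpud1 measured 595, 462 and 489 CPM in BA10, with all 3 values above those of A0. Its log2 fold change against A0 was 2.05 ± 0.38 (edgeR adjusted p = 0.0119), the largest among the members. Dnajb9 measured 212, 147 and 187 CPM in BA10 and rose by 1.89 ± 0.30 on the log2 scale (edgeR adjusted p = 0.00687). Eif2ak3 measured 30.0, 25.6 and 27.7 CPM and rose by 1.74 ± 0.28 (edgeR adjusted p = 0.00708). These are the gene of the disposal complex, the check on IRE1 and the sensor kinase, and for each of them no BA10 library reached down to the A0 values.

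Ddit3 measured 9.85, 8.54 and 9.26 CPM in BA10 and rose against A0 by 1.27 ± 0.22 on the log2 scale (edgeR adjusted p = 0.0100). Hsp90b1 measured 1113, 1096 and 1037 CPM and Canx 447, 440 and 443 CPM. Their log2 fold changes were 0.62 ± 0.13 and 0.41 ± 0.08 (edgeR adjusted p = 0.0213 and 0.0160), and with the trends removed 0.41 ± 0.14 and 0.21 ± 0.11 without passing (adjusted p = 0.102 and 0.242). Xbp1 measured 140, 133 and 129 CPM and fell by 0.84 on the log2 scale (SE 0.17, edgeR adjusted p = 0.0169). All 3 of these genes kept to a narrow range within BA10.

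Hspa5 measured 1165, 1060 and 1152 CPM in BA10, 2.12 times the A0 mean. Its log2 fold change of 1.08 ± 0.33 did not pass with all libraries (edgeR adjusted p = 0.0605) and passed without A10 replicate 3 (adjusted p = 0.00440). Without that library 15 members were higher and 2 were lower, beside 8.38% and 4.56% of all genes tested. Dnajc3, Creld2, Manf, Hyou1, Edem1, Sel1l, Syvn1 and Atf6 joined Hspa5 among the higher, and Atf4 was among the lower. As in BA0, this removal narrows the spread of the genes in which A10 replicate 3 stood apart. The added calls are thus no separate support for a rise. Atf4 measured 103, 89.1 and 99.4 CPM in BA10, between the values of A0 and BA0. Trib3 measured 1.22, 1.76 and 2.26 CPM in BA10 and overlapped with A0 (log2 fold change 0.32 ± 0.36, edgeR adjusted p = 0.581). Sec61b measured 38.1, 39.3 and 32.1 CPM, below all A0 values, without a call.

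Without A0 replicate 1 the members called in BA10 were Dnajb9, Herpud1, Ddit3 and Eif2ak3, all higher. Without A0 replicate 2, when 244 genes in all were called, they were these and Xbp1, which was lower. The same 5 were called after removal of the length and GC trends. Without BA10 replicate 1 or 3 the count was 4, and without A0 replicates 1 and 2 together it was 0. Upper-quartile scaling gave 645 higher and 872 lower genes in all, against 896 and 411, and left the members at 6 and 1.

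The effect of AOS after busulfan was the comparison of BA10 with BA0. None of the 33 members was higher or lower, beside 0.0465% and 0.00775% of all tested genes (edgeR), and 1 member (3.03%) had an unadjusted p under 0.05 beside 4.44% of all genes. DESeq2 called 1 member, higher, and also called more of all genes than edgeR did (counts in the closing section). The log2 fold change was above 0 for 30 of 33 members, beside 6279 of all 12896 genes tested. Many members varied together over the libraries, so these are not 33 separate observations. The median was 0.15 over the folding genes and 0.39 over the Atf4 branch, beside -0.01 over all genes. That of the Atf4 branch lay between Chac1 (0.32 ± 0.45) and Trib3 (0.46 ± 0.36), both with few counts. Hspa5 gave 0.20 ± 0.33 and Dnajb9 0.23 ± 0.29 on this scale (edgeR adjusted p = 1.00 for both). The gene with the smallest p was Ppp1r15a, which measured 11.2, 9.80 and 10.4 CPM in BA0 and 17.9, 15.7 and 16.0 CPM in BA10. Its groups did not overlap, and its log2 fold change of 0.66 ± 0.13 did not pass after adjustment over all genes (edgeR adjusted p = 0.239).

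In the mean level of the folding genes the libraries of BA10 lay closer together than those of the other groups. This did not hold for every single folding gene, such as Dnajb9 against A0 and Sec61b against BA0. The level of the folding genes, as the mean over the genes of log2 CPM relative to the 12 libraries, spanned 0.0616 from the lowest to the highest BA10 library. In BA0 this span was 0.328, in A0 0.482 and in A10 0.875. The group means of the folding genes were -0.21 in A0, -0.16 in A10, 0.09 in BA0 and 0.28 in BA10. A0 and BA0 overlapped, as A0 replicate 1 (0.004) lay above BA0 replicate 3 (-0.07). For the Atf4 branch they were -0.00, -0.13, -0.13 and 0.26, and there the libraries of A0 spread over -0.25, 0.03 and 0.22. In the level of the Atf4 branch Trib3, Asns and Chac1, with few counts, weigh as much as its other genes. These levels are descriptions over members listed with earlier results known, and no test was made of them.

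**Figure D4:**
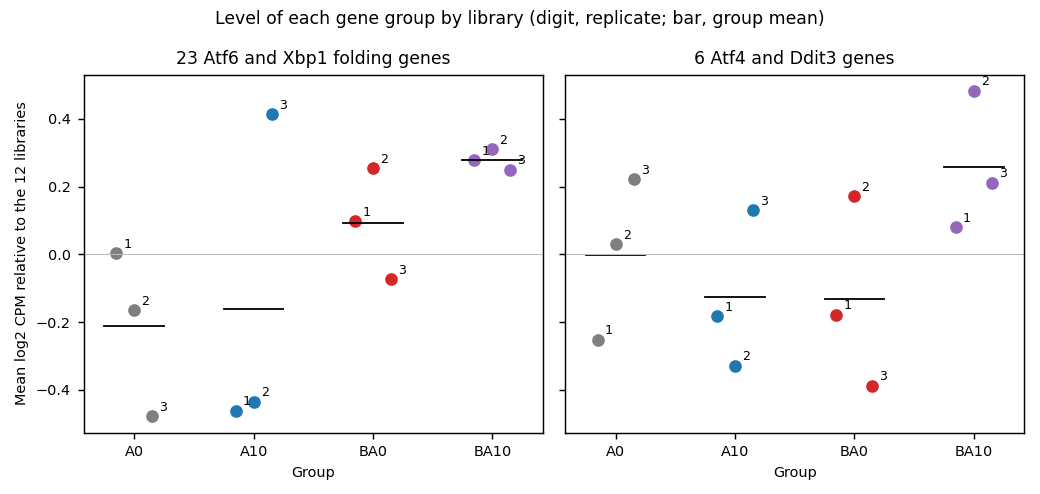
Mean over the 23 folding genes (left) and the 6 genes of the Atf4 branch (right) of log2 CPM relative to the 12 libraries, by group, with the replicate number beside each point and a bar at the group mean. On the left A10 replicate 3 is the highest point at 0.41, above the BA10 libraries at 0.25 to 0.31, while A10 replicates 1 and 2 lie at -0.46 and -0.43.

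AOS without busulfan was the comparison of A10 with A0, which shares the A0 libraries with the comparisons of BA0 and BA10 against A0. Compared to A0, 2 of 33 members were higher in A10 and 2 were lower, beside 2.14% and 1.5% of all tested genes. The higher genes were Atf6 and Eif2ak3, and the lower genes were Xbp1 and Sec61b. The median log2 fold change was 0.16 over the folding genes, -0.26 over the Atf4 branch and 0.40 over the sensors, beside 0.03 over all genes. With the length and GC trends removed the median of the folding genes was 0.05. An unadjusted p under 0.05 was found for 15 members (45.5%), beside 24.9% of all genes.

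Atf6, whose protein is cut in the Golgi to release a transcription factor, measured 50.1, 51.3 and 73.5 CPM in A10. All 3 lay above the A0 values, and the log2 fold change was 0.78 ± 0.16 (edgeR adjusted p = 0.0404), and 0.43 ± 0.16 with the trends removed (adjusted p = 0.183). Eif2ak3 measured 13.1, 12.4 and 29.4 CPM and rose by 1.14 ± 0.28 (edgeR adjusted p = 0.0490). Without A10 replicate 3 this value was 0.62 ± 0.13 (adjusted p = 0.0969). Xbp1 measured 130, 169 and 125 CPM and fell by 0.76 (SE 0.17, edgeR adjusted p = 0.0446), and Sec61b measured 33.2, 31.8 and 27.5 CPM and fell by 0.48 (SE 0.10, edgeR adjusted p = 0.0419), both on the log2 scale. With the trends removed Sec61b gave -0.27 ± 0.10 (adjusted p = 0.205). Atf4 measured 102, 97.6 and 71.9 CPM, below A0 in every library, and did not pass (log2 fold change -0.42 ± 0.12, edgeR adjusted p = 0.0732). Trib3 measured 1.33, 0.882 and 1.44 CPM, within the range of A0 apart from the value of replicate 2.

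A10 replicate 3 was unlike A10 replicates 1 and 2. Hspa5 measured 533 and 491 CPM in replicates 1 and 2 and 1369 CPM in replicate 3, the highest of the 12 libraries. Creld2 measured 12.5, 12.6 and 86.3 CPM in the same order, a ratio of 6.89 between replicate 3 and the mean of the others, and Hyou1 measured 84.5, 79.6 and 311 CPM, a ratio of 3.79. The ratio was 5.1 for Derl3, 3.46 for Syvn1 and 2.79 for Manf, a small secreted factor released under stress. It was 1.15 for Calr, 0.97 for P4hb and 0.722 for Atf4. Herpud1 measured 131, 190 and 365 CPM, Dnajb9 79.8, 80.2 and 175 CPM, Ddit3 4.0, 5.29 and 7.40 CPM, Hsp90b1 795, 766 and 1101 CPM and Canx 398, 369 and 424 CPM, each highest in replicate 3. The acinar genes were at 0 in this library and its Kupffer cell markers were the highest of the series, and the part of Kupffer cells was not tested.

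Without A10 replicate 3, 0 members were called in A10 against A0, beside 0.0306% of all genes higher and 0.00765% lower, the median of the folding genes turned from 0.16 to -0.22 and the log2 fold change of Hspa5 from 0.59 ± 0.33 (edgeR adjusted p = 0.292) to -0.05 ± 0.18. The count was also 0 with the length and GC trends removed, and without any other single library except A0 replicate 3. Without A0 replicate 3, 2 members were higher and 6 were lower (Pdia6, P4hb, Calr, Sec61b, Atf4 and Xbp1). That fit called 1676 genes in all, the most of any fit of A10 against A0 that left out 1 library. Upper-quartile scaling turned the balance of all genes called from 276 higher and 193 lower to 156 and 321, and gave 1 member higher and 2 lower.

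Busulfan among AOS-fed mice was the comparison of BA10 with A10. With all libraries, 0 members were higher and 0 were lower, beside 0.0931% and 0.031% of all tested genes (edgeR). An unadjusted p under 0.05 was found for 7 members (21.2%), beside 8.72% of all genes. DESeq2 called 1 member, and also called more of all genes than edgeR did. Xbp1 gave a log2 fold change of -0.08 ± 0.17 and Atf4 0.10 ± 0.12 (edgeR adjusted p = 0.948 and 0.888). Without A10 replicate 3, 8 members were higher in BA10 and 0 were lower, beside 0.628% and 0.145% of all genes tested, among them Creld2 (log2 fold change 2.22 ± 0.34, edgeR adjusted p = 0.0183), Hyou1 (1.53 ± 0.23, adjusted p = 0.0176), Hspa5 (1.14 ± 0.19, adjusted p = 0.0224) and Eif2ak3 (1.12 ± 0.13, adjusted p = 0.00613). The others were Dnajb9, Manf, Syvn1 and Ppp1r15a. This fit holds 2 A10 libraries. A10 replicate 3 was the highest of A10 in all 8, so its removal lowered their A10 means. These calls are thus no separate support for a rise. Without any other single library 0 members were called.

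Whether the AOS effect itself differed with busulfan was tested as an interaction. No member passed in either direction, beside 0.031% and 0.0233% of all tested genes with a positive and a negative interaction (edgeR). An unadjusted p under 0.05 was found for 9 members (27.3%), beside 15.5% of all genes. DESeq2 called 5 members, and also called more of all genes than edgeR did. The smallest p was that of Ppp1r15a, whose AOS effect was -0.33 ± 0.13 without busulfan and 0.66 ± 0.13 with it, a difference of 0.98 ± 0.19 on the log2 scale (edgeR adjusted p = 0.150). Sec61b (0.64 ± 0.15), Xbp1 (0.79 ± 0.24), Atf4 (0.66 ± 0.17) and Atf6 (-0.88 ± 0.23) followed with adjusted p of 0.163 to 0.204. The median over the folding genes was -0.01 and turned to 0.30 without A10 replicate 3.

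Over the 12 libraries the members varied with Hspa5 to very different degrees. The Pearson correlation of log2 CPM with Hspa5 was 0.98 for Creld2, 0.96 for Syvn1 and Hyou1, 0.94 for Manf and Hsp90b1 and 0.93 for Dnajc3, Pdia4 and Eif2ak3. It lay above 0.743, the 95th percentile of all tested genes, for 12 of the other 22 folding genes, for 1 of 6 genes of the Atf4 branch (Ddit3, 0.87) and for 1 of 4 sensors (Eif2ak3). It was -0.32 for P4hb, -0.49 for Sec61b, -0.67 for Atf4 and -0.68 for Xbp1. The non-members nearest to Hspa5 were Atp2a2, the calcium pump of the endoplasmic reticulum (0.985), Gfpt1, the first enzyme of the hexosamine pathway (0.973), Entpd7 (0.970), Stx5a, a syntaxin of traffic between the endoplasmic reticulum and the Golgi (0.965), and C2cd2l (0.961). Over the 11 libraries without A10 replicate 3 the values were 0.98 for Creld2, 0.95 for Syvn1 and Hyou1, 0.93 for Manf, 0.94 for Herpud1, 0.90 for Ddit3, -0.58 for Atf4 and -0.66 for Xbp1, and from 0.953 to 0.982 for the 5 non-members. The libraries share groups, so these values are given as a description.

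Further genes of the same processes were read from lists of the wider pathway, and their counts stand beside the shares of all genes given above, 4.09% higher and 2.3% lower in BA0, 2.14% and 1.5% in A10, and 6.95% and 3.19% in BA10. Of 21 other folding genes, 0 were higher and 1 was lower in BA0 than in A0, the cyclophilin Ppib (log2 fold change -0.50 ± 0.13, edgeR adjusted p = 0.0471), while the chaperone cofactor Sil1 (-0.34 ± 0.10), Tmx1 (0.28 ± 0.09) and Txndc11 (0.49 ± 0.15) did not pass. In BA10 against A0, 3 of the 21 were higher, the thiol oxidoreductases Tmx1, Txndc11 and Ero1l, and 2 were lower, Fkbp2 and Sil1. Of 15 other disposal genes, Edem3, a mannosidase that marks misfolded glycoproteins, was higher in BA0 (0.85 ± 0.18, adjusted p = 0.0312) and in BA10 (0.87 ± 0.18, adjusted p = 0.0176), and Aup1 was lower in BA0 (-0.38 ± 0.10, adjusted p = 0.0498). The list medians in BA0 were -0.06 and 0.02.

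Of 23 genes for protein entry and glycosylation, 0 were higher and 1 was lower in BA0 than in A0, Ssr4 (-0.47 ± 0.10, edgeR adjusted p = 0.0338), and 4 were lower in A10 than in A0, Dad1, Ddost, Sec61g and Ssr4. The next genes in BA0 were Dad1 (-0.39 ± 0.12), Ssr2 (-0.29 ± 0.09) and Ddost (-0.29 ± 0.10), none of which passed there. On the other side lay Srp54a (0.49, edgeR adjusted p = 0.0965), Srprb (0.57, adjusted p = 0.171) and Sec63 (0.25, adjusted p = 0.157), also without passing. In BA0 12 of the 23 had a log2 fold change above 0, beside 6804 of all 12896 genes tested, with a median of 0.02. Of 30 other Atf4 targets, Eprs was higher in BA0 (0.39 ± 0.10, adjusted p = 0.0470) and the translation repressor Eif4ebp1 was lower (-0.52 ± 0.11, adjusted p = 0.0304), while Shmt2 (-0.43 ± 0.14) and Cebpg (0.24 ± 0.10) did not pass. In BA10, 0 of the 30 were higher and 2 were lower, Shmt2 and Eif4ebp1. The list median was 0.01 in BA0 and -0.08 in BA10.

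Of 15 further signalling genes, 0 passed in BA0, in A10 or in BA10 against A0. Eif2ak2, the kinase PKR, gave 1.02 ± 0.34 in BA0 (edgeR adjusted p = 0.0834) and Eif2s1, which encodes the factor that PERK phosphorylates, gave 0.22 ± 0.09 (adjusted p = 0.122), followed by Creb3l3 (-0.31 ± 0.15) and Ppp1r15b (-0.21 ± 0.12). Of 6 transcripts that IRE1 is known to cut, 0 passed in these comparisons (edgeR). In BA0 2 of the 6 had an unadjusted p under 0.05, beside 28.5% of all genes tested. Bloc1s1, the best known of them, gave -0.33 ± 0.11 (adjusted p = 0.0866), and Hgsnat (-0.23 ± 0.10), Pmp22 (0.60 ± 0.31) and Col6a1 (0.32 ± 0.20) followed. In BA10 against BA0, in BA10 against A10 and in the interaction, 0 genes of these 6 lists passed with all libraries in edgeR.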

How the data were processed

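Liver RNA was enriched with oligo(dT) beads, fragmented and copied with random hexamers, according to the methods of the study. The authors aligned the reads with SOAPaligner (build mm10 in the submitters' processing notes) and deposited estimated counts per gene, of which 78.63% to 80.34% were whole numbers in a library. How decimals arose, and the annotation and counter used, are not stated. The deposited RPKM values served here only to compare levels per length. The 8 columns of group means and the authors' own comparisons (fold changes and p-values) were not used, and 0 per-sample columns were left out.

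Counts were rounded and tested in R 4.3.3 with edgeR 4.0.16 (filterByExpr with 10 counts, TMM, quasi-likelihood fit of the 4 groups with 8 residual degrees of freedom). P-values were adjusted by Benjamini-Hochberg over 12896 genes and called under 0.05. SE is the log2 fold change divided by the root of F. The study's own test (MARS) models sampling of reads without replicates and was not run. Alternatives were DESeq2 1.42.0, other scalings, no filter, a replicate block, removal of length and GC trends by splines (3 inner knots, GENCODE M21 gene models, 12219 genes), leaving out each library and, added after the data were seen, A0 replicates 1 and 2 together, and correlations without A10 replicate 3. The code was tested on simulated counts. Figures were drawn with Python 3.11.15 and matplotlib 3.10.9.

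The members and lists were chosen with earlier results of these data known. Values per library are given for members called in any comparison and for Hspa5, Xbp1, Atf6, Atf4, Ddit3 and Trib3. Fold changes alone are given for up to 4 genes of each further list (smallest p in BA0 against A0), and correlations alone for the 5 non-members nearest to Hspa5. Other genes, such as Ppp1r15a, Hyou1 and Creld2 by library, Srp54a, Srprb and Sec63, and further-list genes called in A10 or BA10, were named after their values were seen.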

Additional observations from a re-analysis of the deposited data

How the results depend on the processing

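The number of members called against A0 depended on the processing. For BA0 it was 9, and 5 with no filter on low counts, 4 with length and GC trends removed, 3 with the replicate block and trends removed together and 0 without A0 replicates 1 and 2, an alternative added after the data were seen. For A10 it was 4, and 1 with no filter, 9 with DESeq2 and 0 with trends removed, with block and trends, or without A0 replicates 1 and 2. For BA10 against A0 it was 7, and 0 without A0 replicates 1 and 2. DESeq2 gave 1 for BA10 against BA0, 1 for BA10 against A10 and 5 for the interaction, where edgeR gave 0. The median of the Atf4 branch in BA10 against A0 was 0.26, and -0.27 without A0 replicates 1 and 2. The cause was not tested. The last alternative leaves 1 control library.

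Leaving out each library gave 0 to 14 members called for BA0 against A0, 0 to 8 for A10 against A0, 4 to 17 for BA10 against A0, 0 to 8 for BA10 against A10, 0 for BA10 against BA0 and 0 to 2 for the interaction. The folding gene medians ran, in the same order, from 0.17 to 0.33, -0.22 to 0.27, 0.37 to 0.43, 0.18 to 0.50, 0.08 to 0.19 and -0.24 to 0.30, and those of the Atf4 branch from -0.45 to -0.17, -0.33 to -0.10, -0.030 (without A0 replicate 1) to 0.46, 0.44 to 0.70, 0.23 to 0.62 and 0.47 to 0.77.

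Over all genes, BA0 against A0 gave 823 calls, and 439 with no filter, 1655 with DESeq2, 191 with trends removed, 283 with block and trends, 1 without A0 replicates 1 and 2 and 4 to 1875 without single libraries. A10 against A0 gave 469, and in the same order 159, 1303, 2, 33, 1 and 1 to 1676. BA10 against A0 gave 1307, and 655 with trends removed, 663 with block and trends, 1 without A0 replicates 1 and 2 and 244 to 2156 without single libraries. BA10 against BA0 gave 7, and 11 with no filter, 37 with DESeq2, 3 without A0 replicates 1 and 2 and 3 to 12 without single libraries. BA10 against A10 gave 16, and 154 with DESeq2, 1 with the replicate block, 3 with block and trends, 1 without A0 replicates 1 and 2 and 0 to 101 without single libraries. The interaction gave 7, and 273 with DESeq2, 2 without A0 replicates 1 and 2 and 5 to 244 without single libraries.

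Samples of the same replicate number in different groups showed no clear common deviation (correlations of -0.074 to 0.142, against -0.195 to 0.171 for different numbers). No pairing by number was seen, and with 3 libraries a group these correlations cannot exclude one. With the replicate block alone the members called were 7 for BA0 against A0, 3 for A10 against A0, 7 for BA10 against A0 and 0 in the other comparisons. Over single members called in a comparison or at the head of a gene group, 775 pairs of an alternative and the reported fit kept direction and call, 15 gained a call, 176 lost it and 14 changed sign, none of them called in either fit. Trib3 turned from -0.14 in BA0 against A0 to 0.032 with trends removed and 0.11 with block and trends, and ran from -0.38 (without A0 replicate 2) to 0.29 (without A0 replicate 3). In A10 against A0 it turned from -0.20 to 0.00083 and 0.044 in these fits and ran from -0.44 to 0.23 without the same libraries, and in BA10 against A0 it turned from 0.32 to -0.30 without A0 replicates 1 and 2. The other values are ranges over leaving out 1 library. Hspa5 ran from -0.051 (without A10 replicate 3) to 0.84 in A10 against A0 and from -0.64 to 0.25 (without A10 replicate 3) in the interaction. Atf4 ran from -0.037 (without A10 replicate 3) to 0.20 in BA10 against A10. Xbp1 ran from -0.077 (without BA0 replicate 2) to 0.16 in BA10 against BA0, where it was -0.0058 without BA10 replicate 1, and from -0.16 to 0.070 (without A10 replicate 2) in BA10 against A10. Atf6 ran from -0.22 to 0.028 (without BA0 replicate 2) in BA10 against BA0. Depth limits Trib3, Asns and Chac1, at 3 to 41 counts a library.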

Other observations

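Outside the members, 28 further genes carried the ERSE letters in the RefSeq promoter window, of which 11 passed the filter on low counts. In BA0 against A0, 0 of these 11 were called by edgeR, beside 4.09% of all tested genes higher and 2.3% lower. In BA10 against A0 also 0 were called, beside 6.95% and 3.19%. The median log2 fold changes of the 11 were 0.38 and 0.24, beside 0.03 and 0.01 over all genes tested. The 11 included Alg12, a mannosyltransferase of the endoplasmic reticulum (log2 fold change 0.65 in BA0, edgeR adjusted p = 0.160, and 0.48 in BA10, adjusted p = 0.275), Ero1b, an oxidase that feeds disulfide formation (0.50, adjusted p = 0.335, and 0.80, adjusted p = 0.128), and Hnrnpa3, a nuclear RNA-binding protein (0.38, adjusted p = 0.0891, and 0.40, adjusted p = 0.0718). These genes were named after their values were seen.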
